A study of Mus musculus with 6 samples.

Results

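The sterol and fatty acid synthesis genes of the SREBP pathway were followed by RNA sequencing in mouse cultures that received C89 or its solvent. The set held 35 genes, taken by symbol from a table of 54232 genes, and it comprised 5 regulators, 1 sterol carrier, 18 enzymes of sterol synthesis and 11 enzymes of fatty acid synthesis, desaturation and elongation. All 35 symbols were found, each with 1 gene identifier, and all 35 genes averaged at least 50 normalized counts. By their labels the cultures were female germline stem cells, a name used for dividing germ cells of the ovary. The identity of the cells was not established here, and levels of cell type markers are given below. Controls received DMSO, the solvent. Treated cultures received C89, which the labels name by a code alone and without a dose. RNA was taken at 8 h in both groups, with 3 libraries each, and the labels name no genotype, strain or age.

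SREBPs are transcription factors made as membrane proteins of the endoplasmic reticulum. When sterols are scarce, the escort protein SCAP carries them to the Golgi, where proteases release the part that enters the nucleus and switches on genes of lipid synthesis; when sterols are plentiful, INSIG proteins hold SCAP back. Srebf2 is known mainly for genes of cholesterol synthesis and uptake and Srebf1 for genes of fatty acid synthesis. Protein cleavage, sterol levels and enzyme activity were not measured, so every value below is an RNA level.

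Values are normalized read counts, that is, read counts divided by a size factor per library. Log2 fold changes are differences of log2(value + 1), C89 over DMSO, and p-values are from limma over 18954 genes with Benjamini-Hochberg adjustment; a gene was called at an adjusted p under 0.05. Each ± is an SD over 3 libraries unless marked SE, and paired means are given as DMSO and then C89. Depth was 17826569 to 21763459 recovered reads in DMSO and 7772060 to 17938295 in C89 libraries. Whether replicates came from separate cultures is not stated, so p-values reflect only library-to-library spread, possibly technical. Libraries 2 and 3 of C89 were much alike, with 0.686% of 12096 genes differing beyond sampling noise; for other pairs of the same group this share was 25.8 to 48.7%. Of 12 germ cell markers, Dazl, Dppa3, Nanos3 and Tfap2c were at 0 in all 6 libraries, and Ddx4 lay between 0 and 6.20. Piwil2 was at 117 to 176 in all libraries, and Zbtb16 fell, from 32.0 to 48.6 in DMSO to 10.2 to 21.7 in C89 libraries (adjusted p = 0.0195). The mast cell list was mixed: Kit, Gata2, Cpa3, Srgn and Fcer1g were abundant, while Ms4a2 was at 0 in all libraries, Fcer1a, Tpsb2 and Mcpt4 averaged under 1, and Tpsab1 lay between 0 and 8.92. The list had a summed level of 54264 to 65927 over 12 genes in DMSO libraries and 92384 to 103090 in C89 libraries. Of the 8 tested, 6 rose (75%) and all 8 had positive log2 fold changes. The share called higher was 12.5% of all genes tested and 18.4% of genes averaging 50 or more. The 12 fibroblast genes summed to 143 to 2551 in DMSO libraries, lowest in the third, and to 62.0 to 141 in C89 libraries. The 8 macrophage genes summed to 1802 to 2711 and to 3721 to 3988, mostly from Adgre1 and Cd68. Only Adgre1 was called, with a 2.37-fold rise (adjusted p = 1.24e-05), and Cd68 had an adjusted p of 0.0891. Of the 6 tested, 2 had positive and 4 negative log2 fold changes (median -0.59). Csf1r averaged 0.266 and 1.14, Itgam 0.796 and 0, and Lyz2 18.6 and 4.15. Cd14 and C1qa were at 0 in all C89 libraries. The part of these marker levels in the results below was not tested. In bulk RNA, fewer cells of a type and less RNA per cell cannot be told apart.

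The pathway did not move in 1 direction after 8 h of C89. Of its 35 genes, 4 rose (Hsd17b7, Tm7sf2, Me1 and Fasn), 7 fell (Fads2, Acss2, Mvk, Pmvk, Dhcr7, Fads1 and Insig1), and 24 were not called, with a median log2 fold change of -0.09. The changed genes were scattered over the pathway: the mevalonate steps, the late sterol steps and the fatty acid steps each held called and uncalled genes. The 11 calls made up 31.4% of the set. Over all genes tested, 26.1% were called, 12.5% higher and 13.6% lower, and over the 10483 genes averaging 50 normalized counts or more the share was 39.2% (18.4% higher, 20.8% lower), so the share in the pathway lay between these backgrounds. Groups did not overlap in 18 of the 35 genes, 6 higher and 12 lower, against 40.9% of all genes tested (19.9% higher, 21.0% lower). That background was not taken over genes averaging 50 or more, a level that all 35 reached. The same 4 and 7 genes were called by edgeR (background 37.2%, with 18.2% higher and 19.0% lower) and by DESeq2 (background 29.9%, with 14.4% higher and 15.5% lower) on the recovered reads, and all 35 calls were the same in the authors' deposited table. Under scaling by total reads instead, 3 were higher and 13 lower, against a background of 29.2% of 19163 genes (7.88% higher and 21.4% lower); that scaling shifted the median of the same 10483 genes from -0.02 to -0.17, and the pathway's median to -0.24.

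**Figure D1:**
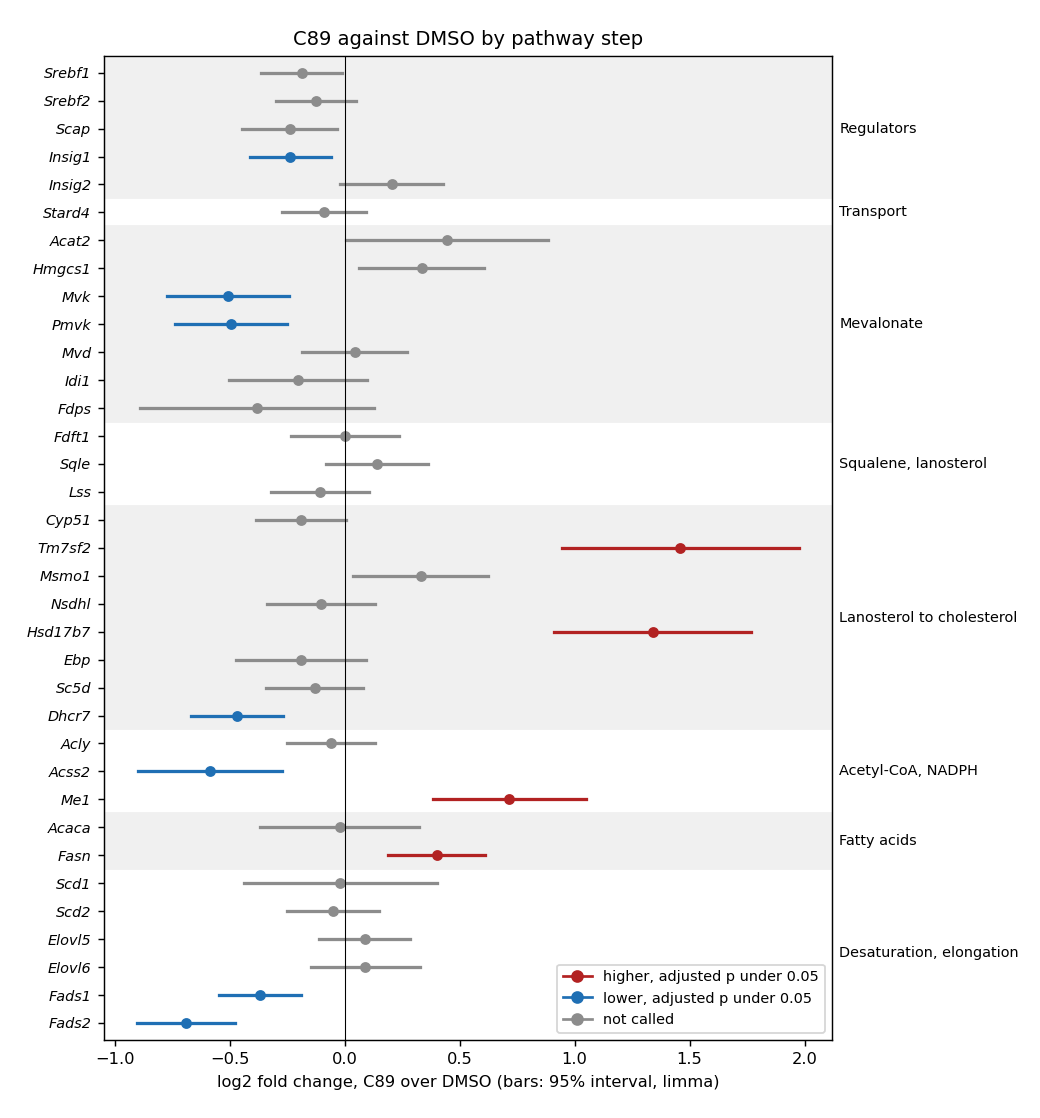
Log2 fold change of each gene, C89 over DMSO, with its 95% interval from limma (3 libraries a group), ordered by pathway step. Red marks the 4 genes that rose, blue the 7 that fell and grey the 24 not called; Tm7sf2 and Hsd17b7 lie above 1 and no gene lies below -0.69.

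Promoter sequence was described for the genes of the set. The genes were chosen as members of the SREBP pathway, so their motif shares are not independent of that choice. RefSeq's promoter table (GRCm38.p6) matched 28 of the 35 genes, and the 250 bases before each start were searched on both strands. The motifs were TCACNCCAC (a form of the sterol regulatory element that SREBPs bind), CCAAT (the site of NF-Y) and GGGCGG (the site of Sp1). NF-Y and Sp1 are known partners of SREBPs at lipid gene promoters. A gene counted if any of its windows matched. The 28 genes had 37 windows and the 27025 genes of the table had 32851, and more windows give a gene more places to match. A CCAAT box was found in 22 of the 28 genes (78.6%), against 37.5% of 27025 genes in the table and 41.1% of the 7719 of them that averaged at least 50 normalized counts here. A GC box was found in 23 of 28 genes (82.1%), against 35.4% and 66.7%. The strict form of the sterol element was found in 1 of 28 genes, Hmgcs1, against 1.22% and 1.26%. A match describes letters only, and no match says only that these letters are not in this window.

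The windows of 5 genes are shown because they bracket the results: Hmgcs1 is the gene with the sterol element, Hsd17b7 and Tm7sf2 had the largest rises, Mvk fell and its window has a CCAAT box in 5 places, and Fads2, with the largest fall, has none. Capitals mark matches to the 3 motifs on either strand, 5′ to 3′ in the direction of the gene.
Hmgcs1, chr13:119690101-119690350, plus strand: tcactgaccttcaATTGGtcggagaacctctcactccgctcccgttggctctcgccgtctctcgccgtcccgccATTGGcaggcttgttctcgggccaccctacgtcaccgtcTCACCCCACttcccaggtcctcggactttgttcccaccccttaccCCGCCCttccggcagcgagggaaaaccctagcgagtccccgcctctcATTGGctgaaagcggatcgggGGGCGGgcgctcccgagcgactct
Hsd17b7, chr1:169969206-169969455, minus strand: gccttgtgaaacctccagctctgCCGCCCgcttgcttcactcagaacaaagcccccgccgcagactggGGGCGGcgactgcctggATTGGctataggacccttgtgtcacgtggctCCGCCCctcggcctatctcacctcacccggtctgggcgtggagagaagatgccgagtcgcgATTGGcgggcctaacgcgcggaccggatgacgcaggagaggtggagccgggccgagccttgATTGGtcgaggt
Tm7sf2, chr19:6067851-6068100, minus strand: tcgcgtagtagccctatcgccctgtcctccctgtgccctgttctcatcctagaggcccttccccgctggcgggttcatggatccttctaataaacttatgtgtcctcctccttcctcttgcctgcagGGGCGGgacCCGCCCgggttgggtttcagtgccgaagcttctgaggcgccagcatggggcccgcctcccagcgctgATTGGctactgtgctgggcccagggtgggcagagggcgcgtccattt
Mvk, chr5:114444019-114444268, plus strand: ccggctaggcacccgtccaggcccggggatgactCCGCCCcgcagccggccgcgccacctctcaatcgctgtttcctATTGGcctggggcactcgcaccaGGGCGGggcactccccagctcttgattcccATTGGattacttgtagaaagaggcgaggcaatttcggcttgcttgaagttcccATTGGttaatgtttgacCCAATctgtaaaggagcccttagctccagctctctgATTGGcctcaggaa
Fads2, chr19:10101504-10101753, minus strand: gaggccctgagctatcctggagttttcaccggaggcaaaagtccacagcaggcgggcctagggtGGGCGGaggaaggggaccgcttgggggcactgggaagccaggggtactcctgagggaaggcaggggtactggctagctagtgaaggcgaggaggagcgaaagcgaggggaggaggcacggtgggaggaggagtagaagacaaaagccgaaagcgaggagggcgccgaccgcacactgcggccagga
In the Hmgcs1 window, the sterol element lies 137 to 129 bases before the start given by RefSeq, where no GENCODE M21 transcript holds the first 30 bases (a transcript does for each of the other 4 genes), with CCAAT boxes on the reverse strand on both sides of it. The Hsd17b7 window has 3 CCAAT boxes and 3 GC boxes, and the Tm7sf2 window has 1 CCAAT box and 2 GC boxes. No comparison of motifs between rising and falling genes was made.

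Transcripts of the SREBP factors themselves stayed within a narrow range. Srebf2 was at 3157, 3233 and 2988 in the DMSO libraries and 2963, 2851 and 2779.9 in the C89 libraries (log2 fold change -0.13 ± 0.08 SE and adjusted p = 0.279). Srebf1 was at 1710.5, 1738 and 1795 in the DMSO libraries and 1562, 1551 and 1493 in the C89 libraries (log2 fold change -0.19 ± 0.08 SE and adjusted p = 0.108). For both genes every C89 library lay below every DMSO library, by a small margin that missed the threshold, with 95% intervals of -0.30 to 0.05 and -0.36 to -0.01. Scap, the escort gene, was at 783, 757 and 881 in the DMSO libraries and 693, 687 and 669 in the C89 libraries (log2 fold change -0.24 ± 0.10 SE and adjusted p = 0.0864). Insig1, which encodes a protein that holds SCAP in the endoplasmic reticulum and is itself a known SREBP target, fell, with values of 2489, 2282 and 2359 in the DMSO libraries and 1951, 2038 and 2059 in the C89 libraries (log2 fold change -0.24 ± 0.08 SE and adjusted p = 0.0477). That call was the weakest of the 11: without any 1 of the 6 libraries its adjusted p was 0.0685 to 0.123. Insig2, the second anchor gene, was at 587, 612 and 532 in the DMSO libraries and 686, 608 and 701 in the C89 libraries, with overlapping groups (log2 fold change 0.20, 95% interval -0.02 to 0.43, adjusted p = 0.170). The gene of the cytosolic sterol carrier Stard4 was at 2028 ± 89.4 and 1909 ± 104 (adjusted p = 0.486). With scaling by total reads, Srebf1, Srebf2, Scap and Stard4 were also called lower, with adjusted p from 0.00794 to 0.0491. Exons of Srebf1 overlap those of Rai1 on the opposite strand by 109 bases in GENCODE M21, and how reads of overlapping genes were assigned is not stated.

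**Figure D2:**
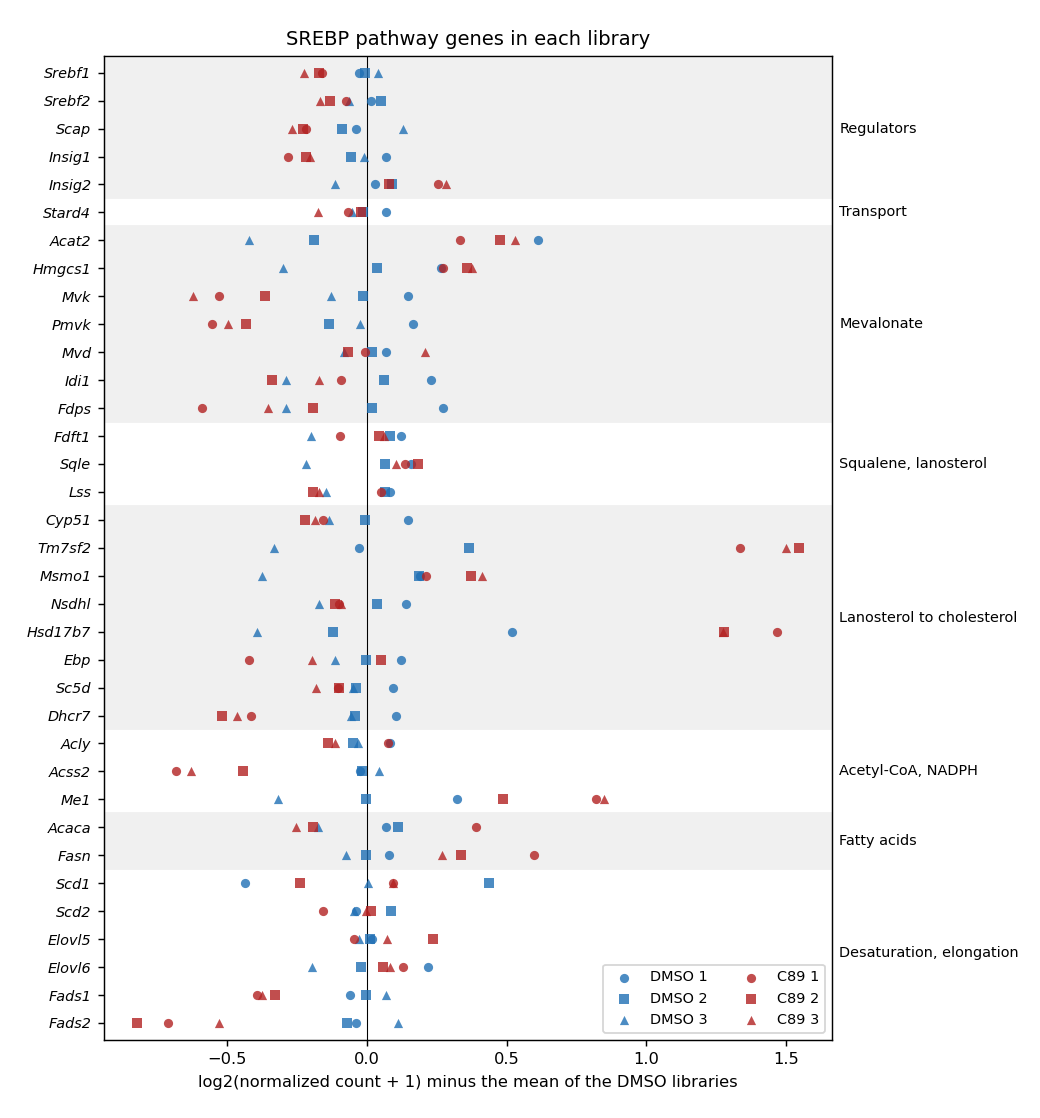
Each gene in each library, as log2(normalized count + 1) minus the mean of the 3 DMSO libraries. Blue marks DMSO and red C89, with a circle, a square and a triangle for libraries 1, 2 and 3 of a group; the C89 points of Tm7sf2 and Hsd17b7 stand to the right of all DMSO points, and those of Fads2, Acss2, Mvk, Pmvk and Dhcr7 to the left.

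The mevalonate pathway builds isoprenoid units from acetyl-CoA, and 2 of its 7 genes fell, both of them kinases. The share called was 28.6%, against 26.1% of all genes tested and 39.2% of genes averaging 50 or more. Mvk, mevalonate kinase, was at 449, 402 and 371 in the DMSO libraries and 281, 315 and 264 in the C89 libraries (log2 fold change -0.51 ± 0.12 SE and adjusted p = 0.00867). Pmvk, the kinase of the next step, was at 557, 452 and 488 in the DMSO libraries and 338, 368 and 352 in the C89 libraries (log2 fold change -0.50 ± 0.11 SE and adjusted p = 0.00640). In both genes every C89 library lay below every DMSO library, and group means were 1.42-fold lower. The call of Mvk was lost without the third C89 library (adjusted p = 0.0506), and that of Pmvk was kept without any 1 library. Hmgcs1, the synthase that makes HMG-CoA, was at 1172, 999.97 and 792 in the DMSO libraries and 1179, 1249.8 and 1265 in the C89 libraries (log2 fold change 0.33 ± 0.12 SE and adjusted p = 0.0664). Its C89 libraries all lay above the DMSO libraries, while the DMSO libraries differed among themselves by 1.48-fold between the first and the third. Acat2, the thiolase gene of the first step, was at 668, 382 and 326 in the DMSO libraries and 550.04, 608 and 631 in the C89 libraries (adjusted p = 0.127). In that gene the first DMSO library was above all C89 libraries and the other two below them; without the first DMSO library both genes were called higher, Acat2 by 0.75 on the log2 scale (adjusted p = 0.00179) and Hmgcs1 by 0.47 (adjusted p = 0.0122). Mvd, the decarboxylase gene, had a log2 fold change of 0.04 (95% interval -0.18 to 0.27), and Idi1, the isomerase gene, one of -0.20 (-0.50 to 0.10). Fdps, the farnesyl diphosphate synthase gene, had few reads and was at 73.4, 61.4 and 49.4 in the DMSO libraries and 39.9, 52.8 and 47.1 in the C89 libraries (adjusted p = 0.262).

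Some of these values are uncertain because near-identical copies can split reads. Copies were taken as transcripts of other genes in GENCODE M21 with at least 95% identity over at least 300 bases. Fdps has 5 of them, and Gm3571, at 98.9% identity over 1062 bases, had a mean of 138 normalized counts, above that of Fdps itself. Acat2 shares 1477 bases at 97.7% identity with Acat3 and 445 bases at 98.7% identity with Tcp1. Idi1 has an identical stretch of 684 bases in Gm13502, which had a mean of 38.7 normalized counts.

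Squalene and lanosterol synthesis, the steps that commit isoprenoids to sterols, had no called gene among 3 (background 26.1% of all genes tested). Sqle, squalene epoxidase, was at 1779, 1669 and 1372 in the DMSO libraries and 1756, 1813 and 1717 in the C89 libraries (log2 fold change 0.14, 95% interval -0.08 to 0.36). Fdft1, squalene synthase, was at 749.7 ± 88.1 and 748 ± 43.4 (95% interval -0.23 to 0.24); 774 of its exon bases overlap Ctsb on the opposite strand, a gene with a mean of 2636 normalized counts. Lss, lanosterol synthase, was at 1768 ± 153 and 1643 ± 158 (95% interval -0.32 to 0.11). These intervals ran from -0.32 at the lowest to 0.36 at the highest.

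The steps from lanosterol to cholesterol held both the largest rises of the pathway and a fall. The share called was 37.5% of 8 genes, against 26.1% of all genes tested and 39.2% of genes averaging 50 or more. Hsd17b7 (ENSMUSG00000026675), a ketoreductase of sterol demethylation, rose 2.46-fold and was at 188, 120.3 and 99.5 in the DMSO libraries and 364, 319 and 319 in the C89 libraries (log2 fold change 1.34 ± 0.20 SE and adjusted p = 0.000540). Tm7sf2 (ENSMUSG00000024799), a sterol reductase that acts after the demethylase Cyp51, rose 2.76-fold from a low level and was at 30.7, 40.6 and 24.7 in the DMSO libraries and 80.6, 93.5 and 90.5 in the C89 libraries (log2 fold change 1.46 ± 0.24 SE and adjusted p = 0.000947). In both genes the lowest C89 library was above the highest DMSO library, and both calls were kept without any 1 library. Tm7sf2 shares 532 exon bases with Vps51 on the same strand, so its reads cannot be fully told apart from those of that gene, which had a mean of 34.2 normalized counts. Dhcr7, the reductase of the last step of a route to cholesterol, fell and was at 1089.6, 984 and 974 in the DMSO libraries and 761, 707 and 734 in the C89 libraries (log2 fold change -0.47 ± 0.09 SE and adjusted p = 0.00285). The other 5 enzymes of these steps were not called. Cyp51 was at 2508, 2251 and 2059 in the DMSO libraries and 2031, 1943 and 1991 in the C89 libraries (log2 fold change -0.19, adjusted p = 0.151) and was called lower with scaling by total reads (adjusted p = 0.0118). Msmo1, the methylsterol oxidase gene, was at 1906, 1899 and 1288 in the DMSO libraries and 1934, 2160.2 and 2221 in the C89 libraries (log2 fold change 0.33, adjusted p = 0.0925). Here the third DMSO library stood apart, and without it the log2 fold change was 0.14. Nsdhl, a dehydrogenase, was at 521 ± 56.7 and 483 ± 3.55, Ebp, an isomerase, at 469.8 ± 38.6 and 415 ± 68.5 and Sc5d, a desaturase, at 578 ± 32.4 and 528 ± 16.9. They had log2 fold changes of -0.10, -0.19 and -0.13, with adjusted p of 0.527, 0.316 and 0.361.

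The fatty acid arm also held changes in both directions: 2 of its 11 members rose and 3 fell (median log2 fold change -0.02). The share called was 45.5%, against 26.1% of all genes tested. Among genes averaging 50 normalized counts or more, a level that all 11 reached, it was 39.2%. Fasn (ENSMUSG00000025153), fatty acid synthase, rose 1.33-fold and was at 3696, 3488 and 3321 in the DMSO libraries and 5288, 4420.1 and 4216 in the C89 libraries (log2 fold change 0.40 ± 0.10 SE and adjusted p = 0.00947). Me1, the malic enzyme that supplies NADPH for lipid synthesis, rose 1.63-fold and was at 517, 412 and 331 in the DMSO libraries and 729.9, 579 and 744 in the C89 libraries (log2 fold change 0.72 ± 0.15 SE and adjusted p = 0.00474). Both calls were kept without any 1 library, but with scaling by total reads Fasn had a log2 fold change of 0.25 (adjusted p = 0.0657). Me1 has a copy, Gm7049, at 98.4% identity over 1716 bases, with a mean of 25.6 normalized counts.

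Acss2, the cytosolic enzyme that makes acetyl-CoA from acetate, fell 1.5-fold and was at 177, 178 and 185 in the DMSO libraries and 112, 132 and 116 in the C89 libraries (log2 fold change -0.59 ± 0.14 SE and adjusted p = 0.0101). Acly, which makes acetyl-CoA from citrate, was at 4576, 4171 and 4229.5 in the DMSO libraries and 4555, 3922 and 3992 in the C89 libraries, with overlapping groups (log2 fold change -0.06, 95% interval -0.25 to 0.13). Exons of Acss2 overlap those of Gss on the opposite strand by 395 bases and those of Ggt7 by 197. Acaca, the acetyl-CoA carboxylase gene, was at 438 ± 45.9 and 439.96 ± 115, with an interval of -0.37 to 0.33, and it is uncertain because Gm5182 matches 6118 of its bases at 99.2% identity and had a mean of 279 normalized counts.

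Fads2 (ENSMUSG00000024665), a desaturase of polyunsaturated fatty acids, showed the largest fall of the pathway and was at 1769.8, 1733 and 1968 in the DMSO libraries and 1111, 1028 and 1261 in the C89 libraries (log2 fold change -0.69 ± 0.10 SE and adjusted p = 0.000446). Fads1, the desaturase that acts later in the same route, fell and was at 1722, 1790.4 and 1881 in the DMSO libraries and 1368, 1429 and 1384 in the C89 libraries (log2 fold change -0.37 ± 0.08 SE and adjusted p = 0.00602). The C89 libraries lay below all DMSO libraries in both genes, and both calls were kept without any 1 library. Elovl5, an elongase of the same polyunsaturated route, was at 1708, 1700.4 and 1651 in the DMSO libraries and 1631, 1988 and 1773 in the C89 libraries (log2 fold change 0.09, adjusted p = 0.528). Elovl6, the elongase of saturated chains, was at 1025, 868 and 767 in the DMSO libraries and 963, 917 and 931 in the C89 libraries (log2 fold change 0.09, adjusted p = 0.594). Scd2, a desaturase that makes monounsaturated fatty acids, was at 18851, 20597 and 18795 in the DMSO libraries and 17366, 19566 and 19361 in the C89 libraries, with an interval of -0.25 to 0.15. Scd1, its paralogue, was at 181, 331 and 245 in the DMSO libraries and 261, 207 and 261 in the C89 libraries (interval -0.44 to 0.40), and 623 bases of both genes are 95.5% identical.

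Ratios between paralogues within a library do not depend on how libraries are scaled. The log2 ratio of Fads1 over Fads2 was -0.02 ± 0.06 in DMSO and 0.30 ± 0.17 in C89 libraries, higher in each C89 library than in any DMSO library. Insig1 over Insig2 went from 2.04 ± 0.13 to 1.6 ± 0.13. In these 2 ratios the groups did not overlap, and the exact two-sided permutation p was 0.1 each, the smallest that 3 against 3 libraries can give (adjusted p = 0.25 over 5 ratios). Srebf1 over Srebf2 changed by -0.06, Scd1 over Scd2 by 0.03 and Elovl6 over Elovl5 by 0.00, with exact p of 0.4, 0.9 and 1.

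Levels were set beside each other per kilobase of merged exon in GENCODE M21, as means over the 6 libraries. Scd2 led with 3494 normalized counts per kb, a level above 99.0% of the genes tested, followed by Acly at 803 and Insig1 at 710.1. Elovl5, Cyp51, Fads2 and Srebf2 came next, at 417 to 495. At the low end were Acaca at 25.7, Acss2 at 14.8, Tm7sf2 at 13.6 and Fdps at 12.8, of which Acaca, Tm7sf2 and Fdps share sequence with other genes. The called genes thus ranged from place 3 to place 34 in level, and the level of Scd1, the paralogue of Scd2, was 50.7.

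**Figure D3:**
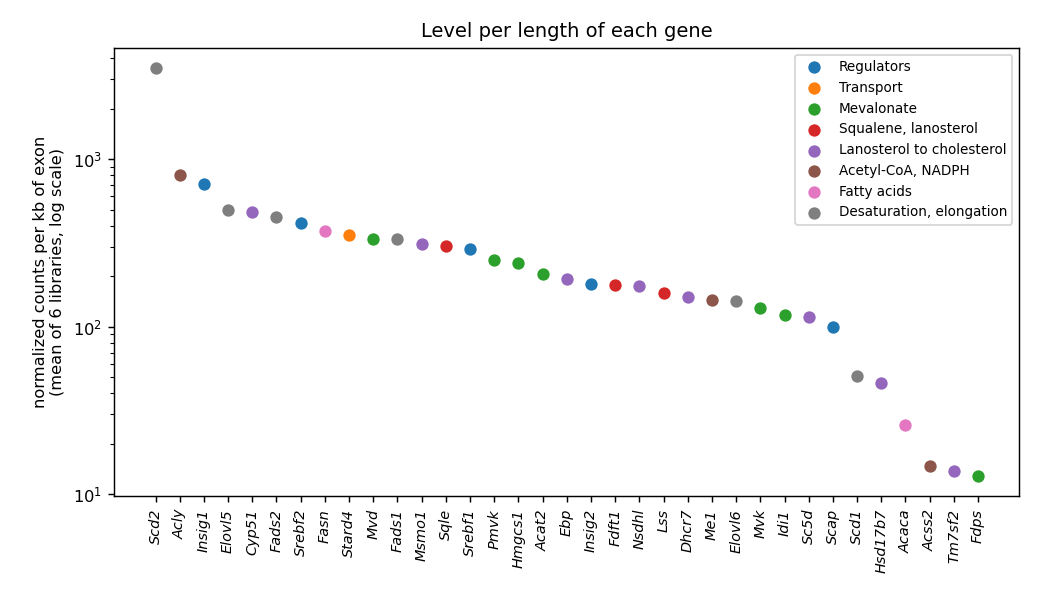
Mean normalized counts per kb of exon over the 6 libraries, on a log scale, for each gene in falling order, coloured by pathway step. Scd2 stands alone at 3494, most genes lie between 100.1 and 803, and 6 genes lie below.

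In 13 of the 18 sterol enzymes the first and the third DMSO library differed more than the groups did. The others were the 5 called genes, Mvk, Pmvk, Tm7sf2, Hsd17b7 and Dhcr7. A call itself requires a group difference that is large against the spread within groups, so this split was largely fixed in advance. These libraries were picked after their values were seen, and single libraries vary more than group means. The count was not made over all genes, so no conclusion is drawn from it. Of the 18, 17 were highest among DMSO libraries in the first and 17 were lowest in the third, against 37.7% and 33.4% of genes averaging 50 or more. The first DMSO library was above the third by a median of 0.31 on the log2 scale over the 18 genes, by 0.05 over the 11 genes of the fatty acid arm and by 0.00 over genes averaging 50 or more. The gap was 2.05-fold in Acat2, 1.89-fold in Hsd17b7, 1.49-fold in Fdps, 1.48-fold in Hmgcs1 and 1.48-fold in Msmo1. Among C89 libraries the median gaps over the sterol enzymes were -0.06 to -0.02. The coefficient of variation was larger in DMSO than in C89 for 15 of the 18, with medians of 11.3% and 7.08%, and for 58.8% of genes averaging 50 or more. The summed fibroblast genes were at 1334, 2551 and 143 in the DMSO libraries, mostly from Fn1 and Dcn in the first and second. Their sum was lowest in the third, as most sterol enzymes were. It was highest in the second, while most sterol enzymes were highest in the first. The part of the fibroblast genes in this gap was not tested. No p is given for this pattern, which was seen in these values. The median log2 fold change of the sterol enzymes was -0.10 with all libraries, -0.05 without the first DMSO library and -0.17 without the third.

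**Figure D4:**
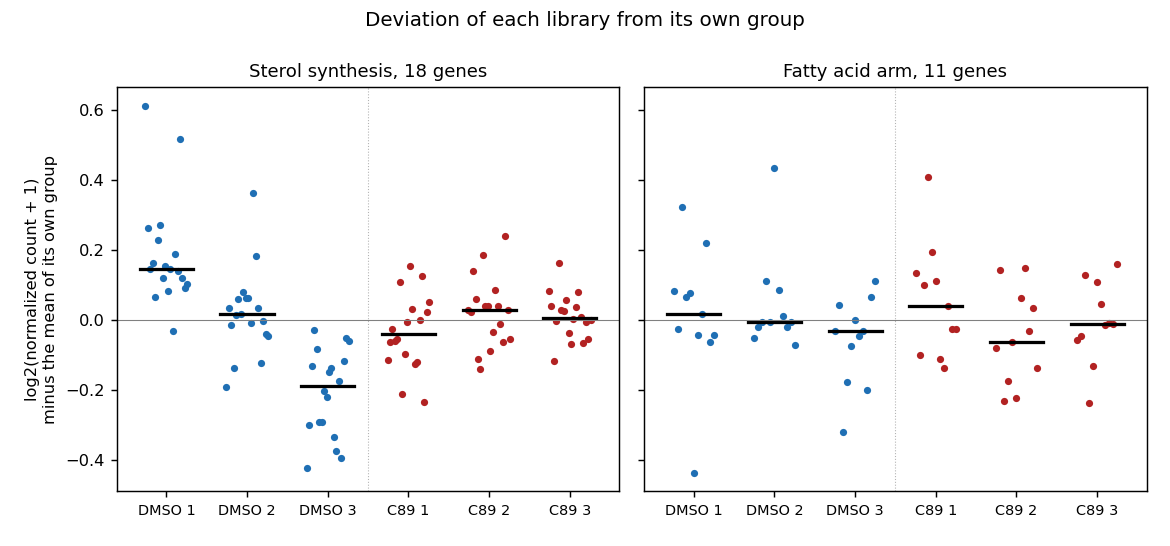
Each point is a gene in a library, as log2(normalized count + 1) minus the mean of its own group of 3 libraries; black bars are medians. In the 18 sterol enzymes the first DMSO library lies mostly above 0 and the third wholly below it, with medians near 0 in C89; the 11 fatty acid genes spread around 0 in every library.

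Other genes of lipid metabolism were read from 6 lists, of which 89 of 90 symbols were matched and 86 genes were tested. Their median log2 fold change was -0.05. Of those tested 11 rose and 16 fell, or 31.4%, against 26.1% of all genes (12.5% higher, 13.6% lower). Among all genes averaging 50 or more, a level that 73 of the listed genes reached, the share was 39.2%. Total-read scaling called 9 of them higher and 28 lower, where the background was 7.88% higher and 21.4% lower.

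Of 12 genes of SREBP cleavage and sterol-sensed degradation, 1 rose and 2 fell (25% called, against 26.1% of all genes tested). Erlin1, an endoplasmic reticulum protein known to bind SREBP complexes, rose from 879.5 ± 60.2 to 1203 ± 89.3 (log2 fold change 0.45 ± 0.10 SE and adjusted p = 0.00437). The ubiquitin ligase gene Syvn1 fell from 2128 ± 345 to 1490.4 ± 53.7 (log2 fold change -0.50 ± 0.11 SE and adjusted p = 0.00487). The SREBP protease genes Mbtps1 and Mbtps2, chosen after their values were seen, had log2 fold changes of -0.05 and 0.29, with adjusted p of 0.679 and 0.0504; edgeR called Mbtps2 higher (adjusted p = 0.0333) and DESeq2 did not (adjusted p = 0.0609).

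Of 18 further sterol and isoprenoid genes, 3 rose and 2 fell (median log2 fold change 0.06). The share called was 27.8%, against 26.1% of all genes tested. Dhdds, whose enzyme starts dolichol synthesis from farnesyl diphosphate, rose 1.75-fold and was at 7599, 7104 and 5946 in the DMSO libraries and 11658, 12051 and 12408 in the C89 libraries (log2 fold change 0.81 ± 0.10 SE and adjusted p = 0.000164), and Coq2, of ubiquinone synthesis, rose from 838 ± 30.6 to 1127 ± 32.5. Lbr, the lamin B receptor, which carries the same sterol reductase activity as Tm7sf2, fell from 2792 ± 194 to 1986 ± 88.4 (log2 fold change -0.49 ± 0.09 SE and adjusted p = 0.00146). Osbp, a sterol transfer protein gene, fell from 2567 ± 311 to 1804 ± 55.4. Among 8 LXR genes, the apolipoprotein gene Apoe rose from 134 ± 28.0 to 737 ± 33.1, the sterol exporter gene Abca1 fell from 59.6 ± 18.4 to 32.8 ± 4.89, and Mylip had a log2 fold change of -0.51 (adjusted p = 0.0810).

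Of 31 tested genes of fatty acid and glycerolipid synthesis, 5 rose and 8 fell. The share called was 41.9%, against 26.1% of all genes tested and 39.2% of genes averaging 50 or more. The mitochondrial fatty acid synthesis genes moved apart: Mcat fell (-0.89 on the log2 scale), as did Oxsm (-0.88), and Mecr rose (0.87). Acsl3 and Acsl4, which activate long-chain fatty acids, rose from 862 ± 106 to 1418 ± 132 and from 2032 ± 450.2 to 3132 ± 415. The diacylglycerol acyltransferase gene Dgat2 rose with a log2 fold change of 0.70 and the acetoacetate-activating Aacs with 0.33. Slc25a1, the mitochondrial citrate carrier that feeds Acly, fell from 1938 ± 216 to 1364 ± 123 (log2 fold change -0.50 ± 0.10 SE and adjusted p = 0.00360). The phosphatidate phosphatase genes Lpin2 and Lpin1 fell with -0.51 and -0.39, the dehydratase gene Hacd3 with -0.33 and the carbohydrate-response factor gene Mlx with -0.34. Its partner Mlxipl had few reads, at 4.83 ± 1.52 and 0.425 ± 0.736 (adjusted p = 0.0346).

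Of 13 tested genes of fatty acid oxidation none rose and 3 fell, so 23.1% were called, against 26.1% of all genes tested. Their log2 fold changes were positive in 6 and negative in 7. Cpt1a, the gate of mitochondrial fatty acid entry, fell 1.90-fold and was at 1558, 1495 and 1705 in the DMSO libraries and 832, 817 and 861 in the C89 libraries (log2 fold change -0.92 ± 0.09 SE and adjusted p = 3.39e-05), and Cpt2 and Acads fell with -0.40 and -0.31. Of 4 tested NADPH genes, G6pdx rose with 0.32 (adjusted p = 0.0499), while Pgd and Mthfd1 had adjusted p of 0.392 and 0.203. Of these 27 calls, 18 were kept without any 1 library. The highest adjusted p was 0.2 for Abca1, 0.138 for Mlxipl, 0.149 for Lpin1 and 0.0873 and 0.0879 for Acads and Dgat2, the first 3 without the second DMSO library and the last 2 without the third C89 library. It was 0.168 for G6pdx without the third DMSO library, 0.101 for Aacs and 0.0640 for Hacd3 without the third C89 library, and 0.0765 for Mlx without the first C89 library. DESeq2 did not call Abca1 (adjusted p = 0.0895) or Lpin1 (adjusted p = 0.0519), and edgeR did not call G6pdx (adjusted p = 0.0563). Neither edgeR nor DESeq2 gave an adjusted p for Mlxipl.

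**Figure D5:**
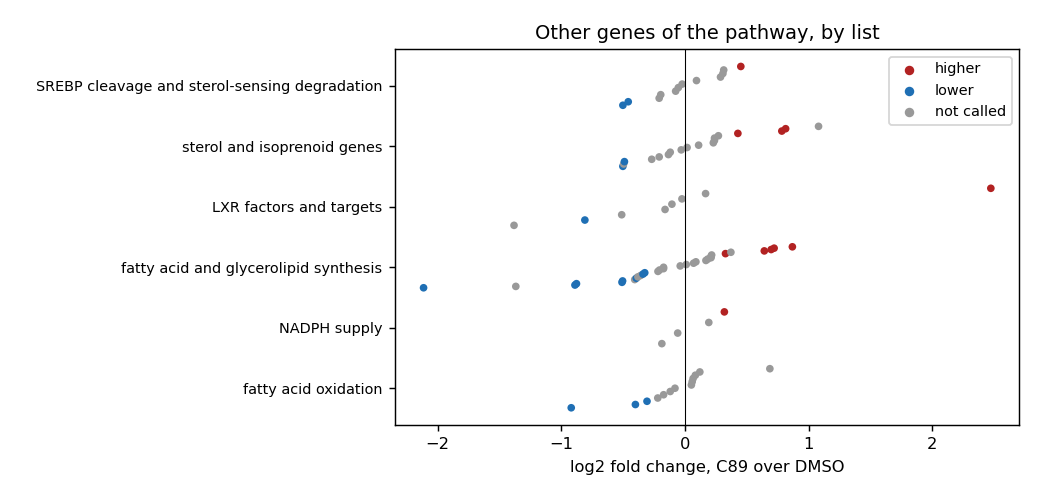
Log2 fold change, C89 over DMSO, of 86 tested genes in 6 lists of lipid metabolism outside the 35 genes; each point is a gene, red if it rose, blue if it fell and grey if not called. Apoe lies farthest to the right at 2.47 and Mlxipl farthest to the left at -2.11.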

How the data were processed

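Sequencing covered 6 RNA libraries of mouse cultures (3 DMSO, 3 C89, 8 h). The submitters' processing notes list HISAT2 and DESeq2, with no version. Build, annotation and counter: not given in the sources used here. The authors deposited 1 table of normalized counts, a signal per gene and library, with their own log2 fold change and adjusted p-value per the file headers. Deposited values were whole multiples of 1 step per library: 119020 of 119020 values above 0 (100%) came out whole within 0.01 read. Reads were recovered by dividing by the step. A gene with text in a value was left out, and 7 unnamed columns were not used.

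The main test was limma 3.58.1 (R 4.3.3) with a mean-variance trend on log2(value + 1), with group as the only term, over genes averaging 1 or more. That scale understates the change of low genes. The count tests on recovered reads, edgeR 4.0.16 (quasi-likelihood) and DESeq2 1.42.0, called 4928 and 4529 genes, and limma 4946. The procedure was tested on simulated data with the same spread setting for all genes, unlike real genes. There limma recovered 56.7% of 1.5-fold and 97.0% of 2-fold changes, with 14 false calls among 183. An uncalled gene is therefore not shown to be unchanged. The genes, lists and tests were chosen with earlier results of these data known. Named genes were every gene of the set, called genes of the other lists and the 3 with the lowest p in each; some of these are not reported here. Intervals are 95% intervals.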

Additional observations from a re-analysis of the deposited data

How the results depend on the processing

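Over 15 alternatives, 525 fold changes of the 35 genes were recomputed: 482 kept direction and side of the threshold, 11 called values missed the threshold, 8 uncalled values passed it and 24 turned sign, none of them called. Without any 1 library, 4 to 6 genes were higher, 5 to 6 lower, and of the other lipid genes 8 to 14 were higher and 12 to 13 lower. Scaling by total reads gave 13 lower genes in the set in place of 7 and 28 lower other genes in place of 16. With C89 libraries 2 and 3 summed, 4 were higher and 6 lower. With the replicate number as a block, 4 genes were higher and 6 lower; equal numbers did not deviate together (r of -0.08, -0.03 and -0.06), and the call lost was that of Insig1 (adjusted p = 0.124).

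Signs that turned belong to genes near 0. With scaling by total reads these were Mvd (-0.10), Fdft1 (-0.15), Sqle (-0.0071), Elovl5 (-0.061) and Elovl6 (-0.059). With summed C89 libraries they were Fdft1 (-0.022), Acaca (0.079) and Scd1 (0.033). With DESeq2 and edgeR, Fdft1 was at -0.0068 and -0.0048 and Acaca at 0.014 and 0.023. Without any 1 library, Mvd was at -0.038 to 0.10, Fdft1 at -0.10 to 0.062, Acaca at -0.22 to 0.10, Scd1 at -0.24 to 0.20, Scd2 at -0.081 to 0.0050 and Elovl6 at -0.0098 to 0.20, and the ratios of Scd1 over Scd2 and of Elovl6 over Elovl5 changed by -0.17 to 0.21 and by -0.085 to 0.10. The cause was not tested. Depth limits Fdps and Tm7sf2 most, the members with the fewest reads.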
